A study of Bos taurus with 12 samples.

Results

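Removal of rosiglitazone from a serum-free adipogenic medium was compared with the full medium, called rDM, in bovine stromal vascular cells (SVCs, labelled MSC) isolated from subcutaneous brisket fat of Belgian Blue cattle. The comparison was defined by medium and used 6 of the 12 libraries of the series, 3 grown in rDM and 3 in rDM 0% Ros, with cells of 3 donors in both media, matched by the replicate letters A, B and C. All cells were differentiated without serum for 12 days in a basal formulation called DMAD, which itself held the steroids hydrocortisone (25 nM) and progesterone (17 nM). To make rDM, rosiglitazone at 5 μM and insulin at 10 μg/mL were added to it. rDM 0% Ros had the same insulin, hydrocortisone and progesterone and lacked rosiglitazone alone. The other media of the series lacked insulin (rDM 0% Ins) or both steroids (rDM 0% HC/PR), in the same 3 donors, and their libraries entered the fit to estimate the spread and are given beside rDM and rDM 0% Ros for some genes and gene groups. Donor ages were not given per library. Each library came from 1 culture of 1 donor. The study names 3 batches of RNA extraction and cDNA synthesis. These were taken here to be the 3 donors, so that donor and batch cannot be told apart.

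Rosiglitazone is a thiazolidinedione that binds and activates PPARγ, a nuclear receptor that pairs with the retinoid X receptor on DNA and drives the expression of fat-cell genes. Its targets include genes for fatty acid uptake and transport, triglyceride synthesis and the coating of lipid droplets. Insulin acts through a cell-surface receptor kinase, hydrocortisone through the glucocorticoid receptor and progesterone through its own nuclear receptor. The study treats both steroids as activators of the glucocorticoid receptor and removed them together for that reason. Removal of rosiglitazone takes away the strong PPARγ ligand while the other hormones stay in place, although weak ligands such as fatty acids can come from the medium, whose basal formulation contains lipids, and from the cells themselves.

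Full-length cDNA was read by Nanopore sequencing. The estimated reads assigned to transcripts in donors A, B and C were 1153853, 673121 and 424759 in rDM and 537936, 333466 and 402734 in rDM 0% Ros. In each donor the rDM library was the deeper of the pair. Levels are given as deposited, in CPM (read counts scaled to an equal total per library), corrected by the authors for batch. A count of 0 allowed a level of up to 2.71, 4.53 and 7.21 CPM in the rDM libraries and of up to 5.69, 9.18 and 7.87 CPM in the rDM 0% Ros libraries, which is 3 reads in each and covers counting error only. Reads per gene are those recovered from the corrected CPM and thus batch-adjusted counts, not the reads as observed. Genes were known by Ensembl identifier alone, and 0 of 22372 identifiers could be paired with a name in the annotation used here, so that fat-cell and progenitor markers were not analysed here and the genes are described by level, size of change and identifier.

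Of 9267 genes tested, 470 (5.07%) differed between rDM 0% Ros and rDM, with 303 lower (3.27%) and 167 higher (1.8%) in the absence of rosiglitazone (limma on log2(CPM + 1) with donor as a block, Benjamini-Hochberg adjusted p under 0.05). The median log2 fold change was −2.01 for the lower genes, whose median level went from 163.7 CPM in rDM to 39.1 CPM. It was 1.62 for the higher genes, whose median level went from 52.3 to 153.3 CPM. No reads were found in the lower medium for 23 of the lower and 4 of the higher genes, and with these set to the bound that 3 reads per library allow the medians were −1.91 and 1.58. Both groups moved against a median of 0.10 over all genes tested, which became −0.04 when TMM scaling was applied, so that changes are to be read relative to it. The median itself was 0.27 without the rDM 0% Ros library of donor B, 0.01 without that of donor A, 0.24 without all libraries of donor B and 0.16 with library pool in the block. In bulk RNA, fewer cells that express a gene and less of its RNA per cell cannot be told apart. The number of genes depended on the fit. Without a mean-variance trend in limma's variance estimate 210 genes passed, 163 lower and 47 higher, and when library pool joined donor in the block 304 passed, 209 lower and 95 higher. Other fits gave more genes and a different split. With TMM scaling 372 were lower and 135 higher. With only the 6 libraries compared 312 were lower and 269 higher, and without the donor block 428 and 314. Leaving out 1 library moved the count of 470 most for the rDM libraries of donors A, B and C, with 290, 258 and 282 genes, and for donor A without rosiglitazone, with 310, and without both libraries of donor A or of donor C and their other media it was 155 or 198.

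**Figure D1:**
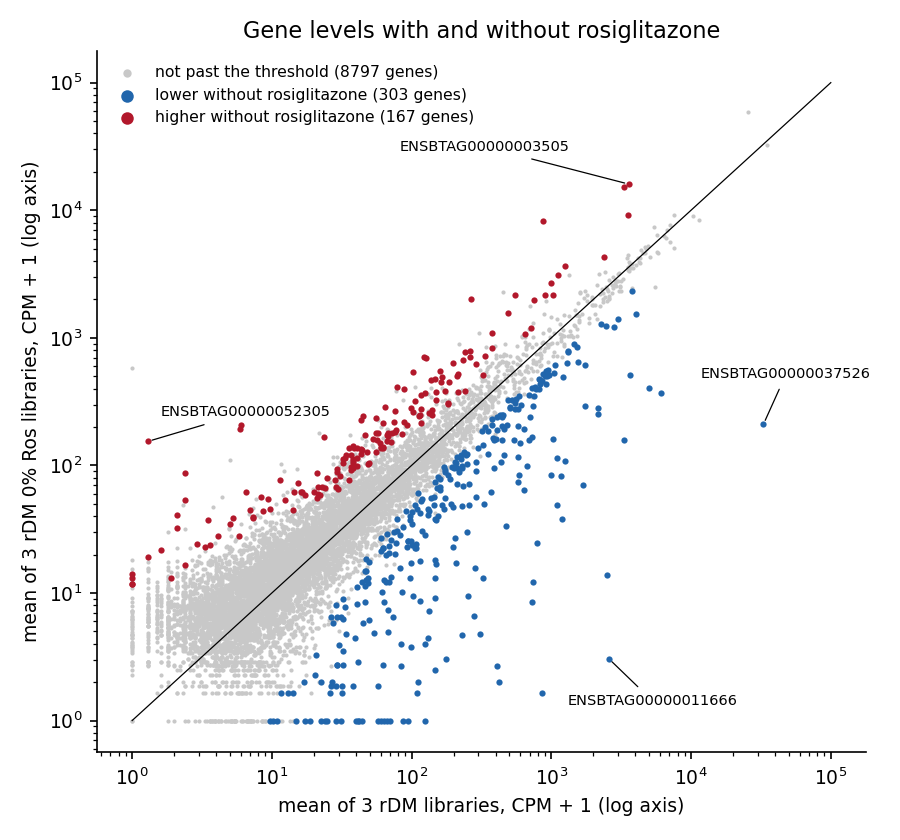
Mean level of each of the 9267 genes tested in the 3 rDM libraries (horizontal) against the 3 rDM 0% Ros libraries (vertical), in CPM + 1 on log axes, with the line of equal levels. The 303 lower genes (blue) reach far below the line and down to no reads, and the 167 higher genes (red) stay mostly closer to it, while the 4 genes given in full are marked.

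The direction was the same in all 3 donors for each of the 303 lower and each of the 167 higher genes, and in none of them did the ranges of the 2 media overlap. Of all 9267 genes tested, 3536 (38.2%) had the same direction in the 3 donors. Absence of overlap was itself common, since all 3 rDM 0% Ros libraries lay below the 3 rDM libraries for 11.4% of the genes tested and above them for 15.3%. The lower genes had median log2 ratios of −1.86, −2.09 and −1.87 in donors A, B and C. A fall of at least 2-fold was seen in 251, 254 and 235 of the 303 genes in donors A, B and C. The higher genes had median log2 ratios of 1.60, 1.63 and 1.64, and a rise of at least 2-fold was seen in 147, 143 and 146 of the 167. The medians were thus close among the donors in both directions, although the genes were called by a fit with donor as a block, which favours equal changes in the 3 donors. Extreme ratios were less even. Rises of at least 16-fold were seen in 4, 14 and 16 of the higher genes in donors A, B and C, and falls of at least 16-fold in 65, 66 and 53 of the lower genes. Ratios of that size can rest on libraries with few or no reads, where depth limits them. These counts therefore do not show that the donors differed in extreme changes. Over all genes tested the donors differed. The share with a ratio at least 2-fold down was 14.2% in donor A, 23.7% in donor B and 15.4% in donor C, and the share at least 2-fold up was 26.8%, 15.3% and 25.05%. Donor B was also the donor whose libraries were sequenced in different pools, rDM in pool 1 and rDM 0% Ros in pool 2, whereas each pair of donors A and C came from a single pool. The part of the pool in that difference was not tested. Across 4070 genes with a mean of at least 20 CPM, the log2 ratios of donors A and B had a Pearson r of 0.649, those of A and C 0.585 and those of B and C 0.639, as a description across genes that share libraries and depth. These CPM had been corrected for batch, taken here to be donor. In reads per transcript without that correction, r was lower, at 0.447, 0.381 and 0.420 across 4105 transcripts. Transcripts and genes are different units, and the part of the correction was not tested.

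The share of genes past the threshold rose with level, in a count of calls with no test between classes. Classed by their mean level in rDM, of the 168 genes at 1000 CPM or more in rDM, 33 were lower (19.6%) and 7 were higher (4.17%). Of the 1053 genes between 100 and 1000 CPM, 159 were lower (15.1%) and 48 higher (4.56%). Between 10 and 100 CPM the numbers came closer, with 108 lower (2.49%) and 81 higher (1.87%) of 4343 genes. Under 10 CPM the order turned, with 3 lower (0.0810%) and 31 higher (0.837%) of 3703 genes. The smallest rDM mean among the lower genes with at least 16-fold change was 16.2 CPM. The rDM mean is also the baseline of the fold change, and genes low in rDM could be tested because they were higher in another medium, so that a class cut on it favours rises at low level and falls at high level. Classed instead by the mean over the 6 libraries, an alternative added after these values were seen, the higher genes were not in excess under 10 CPM, with 10 lower and 7 higher of 3397 genes. From 10 to 100 CPM 136 were lower and 77 higher, from 100 to 1000 CPM 135 and 69, and at 1000 CPM or more 22 (13.1%) and 14 (8.33%) of 168. By this classing the share called rose with level in both directions, from 0.294% to 2.94%, 12.5% and 13.1% for lower genes and from 0.206% to 1.66%, 6.41% and 8.33% for higher genes. The median absolute log2 fold change over all genes in a class went the other way, at 0.78 under 10 CPM, then 0.46, 0.40 and 0.28. Counting error adds to this median at low level, so that it does not compare the size of real changes between classes. It also makes a change of a given size harder to call at low level. The share called therefore does not compare how often genes really changed between classes. The lower genes were the more numerous in each class.

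**Figure D2:**
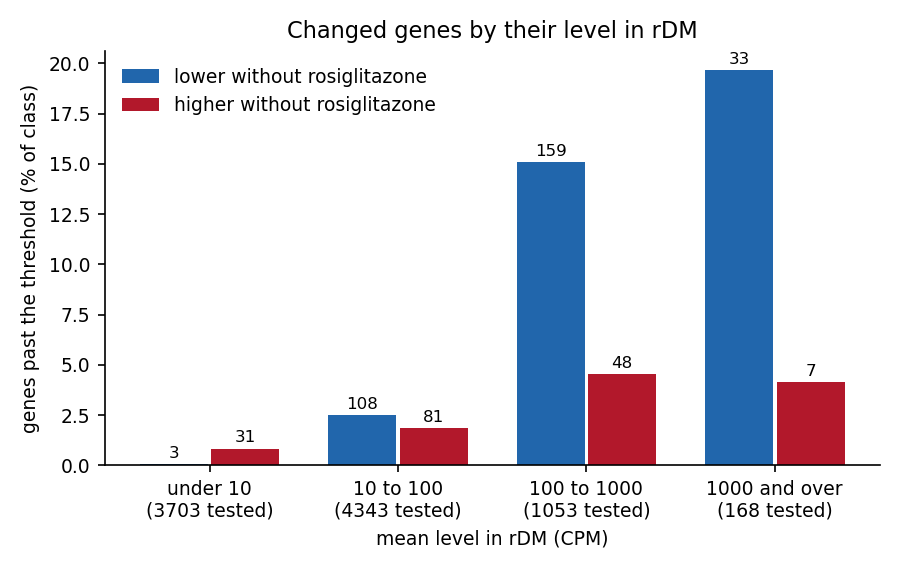
Share of tested genes that were lower (blue) or higher (red) without rosiglitazone, in % of each class of mean rDM level in CPM, with the number of genes above each bar. The lower genes make up 15.1% and 19.6% of the upper classes and outnumber the higher genes there, whereas under 10 CPM 31 genes were higher and 3 lower, an order that is not kept when genes are classed by the mean of both media.

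The lower genes were also spread over a wider range of fold change. Of the 303, 53 changed by less than 2-fold, 94 by 2 to 4-fold, 95 by 4 to 16-fold and 61 (20.1%) by 16-fold or more. Of the 167 higher genes, the corresponding numbers were 12, 104, 45 and 6 (3.59%), so that most of the higher genes lay between 2 and 4-fold. The pseudocount of 1 CPM makes these folds too small for genes measured at low level, whereas for genes with no reads in a medium it lies below the 3-read limit and the fold can exceed what the counts support. Genes with small folds were called only where levels were high, with a median rDM level of 545 CPM for the 53 lower genes under 2-fold and a median standard error of 0.18 on the log2 scale. The 61 genes lowered by 16-fold or more had a median rDM level of 92.9 CPM and a median of 1.65 CPM without rosiglitazone. For 19 of the 61 no read was found without rosiglitazone, and 3 reads per library bound the fold at 16 or more for 1 of these. The 6 genes raised by 16-fold or more had medians of 1.40 CPM in rDM and 119.6 CPM without rosiglitazone. Few changes of that size were not called, since 1 gene with a fall and 2 genes with a rise of 16-fold or more did not pass the threshold. Between 4 and 16-fold, in contrast, 165 falls and 258 rises were not past it.

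The 4 genes that follow were chosen for the size of their difference between rDM and rDM 0% Ros, and their tests against the other media use the same rDM 0% Ros libraries, so that these tests are not independent of the choice. The single largest loss of RNA was that of ENSBTAG00000037526. This gene stood at 33216, 33949 and 31799 CPM in rDM in donors A, B and C, and at 129, 174 and 325 CPM in rDM 0% Ros. It was among the 3 most abundant genes of the 6 libraries on average, and the lowest rDM library lay far above the highest rDM 0% Ros library. The ratio of means was 157, and it was 258, 195 and 97.8 in donors A, B and C (log2 fold change −7.40, SE 0.27, limma adjusted p = 3.13e-09). Its levels without insulin were 16214, 9649 and 20272 CPM and without steroids 21485, 24360 and 24388 CPM. Every library of those media was thus above every rDM 0% Ros library, and the difference itself was past the threshold against rDM 0% Ins (log2 fold change −6.23, limma adjusted p = 2.95e-08) and against rDM 0% HC/PR (−6.90, limma adjusted p = 7.82e-09).

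ENSBTAG00000011666 had the largest fall in log2 fold change. In rDM it stood at 2828, 3071 and 1862 CPM, from 5939 reads in total, and in rDM 0% Ros at 0, 6.12 and 0 CPM, from 2 reads, both in donor B. The gene therefore went from a level above most genes to about the limit of detection in all 3 donors (log2 fold change −10.36, SE 1.19, limma adjusted p = 0.00011). The ratio of reads, pooled over donors and scaled to library totals, was 1679, with an exact 95% interval of 465 to 13866 that treats the batch-adjusted reads as counts and covers counting error only. The ratio of mean CPM was 1268, and in donor B, the only donor with reads in rDM 0% Ros, the ratio was 502. Without insulin the levels were 290, 2.23 and 129 CPM, lower than in any rDM library and unequal among donors, and without steroids they were 1458, 849 and 1722 CPM. The difference between rDM 0% Ros and rDM 0% HC/PR was past the threshold (log2 fold change −9.39, limma adjusted p = 0.000468), and that between rDM 0% Ros and rDM 0% Ins was not (−4.69, limma adjusted p = 0.0649).

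ENSBTAG00000003505 made the largest gain of RNA. It went from 2470, 5253 and 3012 CPM in rDM to 14609, 19524 and 13938 CPM in rDM 0% Ros, and all libraries without rosiglitazone were above all rDM libraries. The ratio of means was 4.48, and it was 5.92, 3.72 and 4.63 in donors A, B and C (log2 fold change 2.22, SE 0.31, limma adjusted p = 0.000622, and 0.0541 when all libraries of donor A were left out). Levels in the other media were 8374, 4448 and 7745 CPM without insulin and 11002, 7601 and 11521 CPM without steroids. They lay between rDM and rDM 0% Ros in every donor except donor B without insulin, which was below its rDM library. The difference from rDM 0% Ros was past the threshold against neither of them (limma adjusted p = 0.0570 and 0.383).

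ENSBTAG00000052305 had the largest rise in log2 fold change. It was at 0.903, 0 and 0 CPM in rDM, from 1 read in donor A, and at 226, 116 and 118 CPM in rDM 0% Ros, from 202 reads. It was thus at the limit of detection in rDM and clearly present in each donor without rosiglitazone (log2 fold change 6.89, SE 1.31, limma adjusted p = 0.00601). The ratio of pooled, scaled reads was 357, with a wide exact 95% interval of 63.4 to 14181 computed in the same way. The ratio of mean CPM was 509, and in donor A, the only donor with a read in rDM, the ratio was 250. The call was not kept without donor A (limma adjusted p = 0.0798), without donor C (0.0715) or without the mean-variance trend (0.0749). Levels were uneven among donors in the other media, at 5.40, 188 and 77.9 CPM without insulin and 13.3, 0 and 82.2 CPM without steroids, and the differences from rDM 0% Ros were not past the threshold (limma adjusted p = 0.656 and 0.199).

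**Figure D3:**
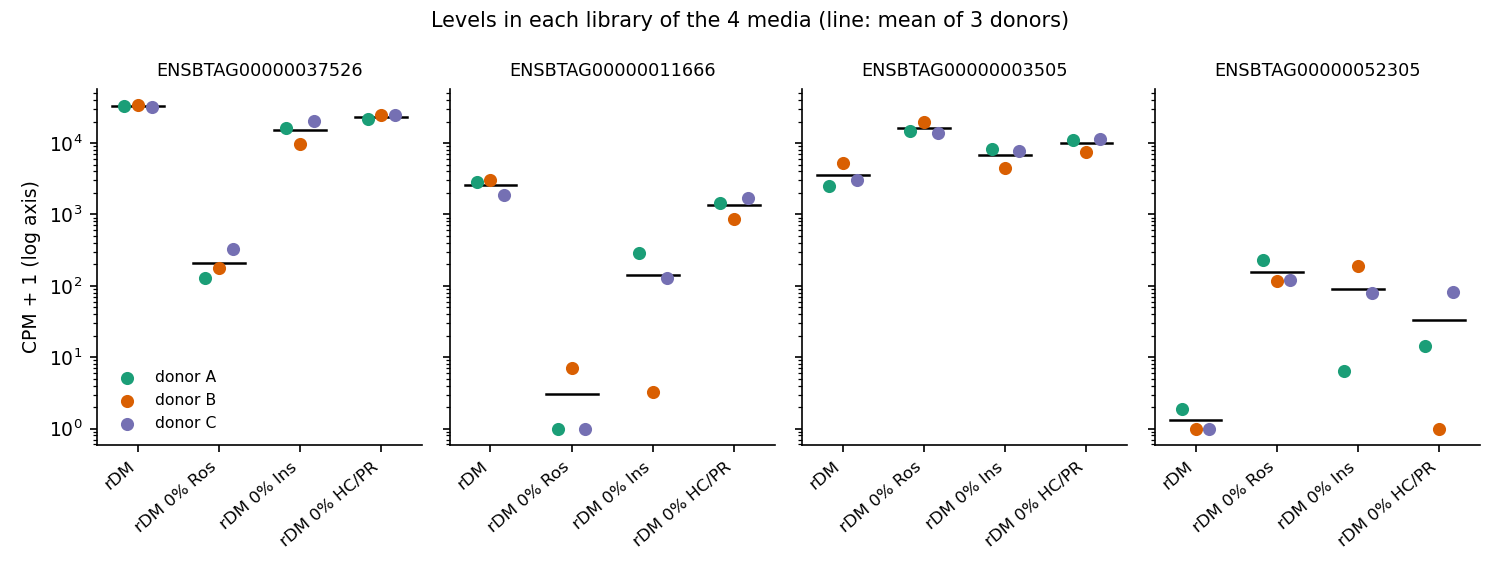
Level of the 4 genes in each of the 12 libraries, in CPM + 1 on a log axis, by medium, with donors as coloured points and the mean of 3 donors as a line. ENSBTAG00000037526 and ENSBTAG00000011666 have their lowest means in rDM 0% Ros, although the library of donor B without insulin is at 2.23 CPM for ENSBTAG00000011666, and ENSBTAG00000003505 and ENSBTAG00000052305 have their highest means there, with the donors of ENSBTAG00000052305 far apart in the other media.

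A few genes carried much of the shift in RNA. Summed over the 303 lower genes, mean levels fell by 125808 CPM, of which ENSBTAG00000037526 gave 26.1%, the 5 genes with the largest losses 39.3% and the 10 with the largest losses 48.3%. The next largest loss was in a gene at 5446, 6552 and 6419 CPM in rDM and at 275, 361 and 459 CPM without rosiglitazone (limma adjusted p = 3.62e-08), a 16.8-fold fall. The third was in a gene at 5338, 4622 and 5095 CPM in rDM and at 328, 410 and 472 CPM without it (limma adjusted p = 2.69e-07), a 12.4-fold fall. In both genes the donors differed by less than the media did, and no rDM 0% Ros library came near the rDM libraries. Gains were concentrated in other proportions. Mean levels of the 167 higher genes rose by 74496 CPM in sum, of which ENSBTAG00000003505 gave 16.7%, the 5 largest gains 53.2% and the 10 largest 65.3%. The second largest gain was in a gene at 4386, 3113 and 2409 CPM in rDM and at 19118, 19386 and 7048 CPM without rosiglitazone, where donor C was lower than the others (limma adjusted p = 0.0025). The third was in a gene held tightly in rDM, at 832, 861 and 898 CPM, and at 8652, 9457 and 6439 CPM without rosiglitazone (limma adjusted p = 3.23e-05), a 9.47-fold rise.

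As a share of each library, the 303 lower genes held 16.8%, 17.3% and 16.3% of the CPM in rDM and 4.10%, 4.18% and 4.39% in rDM 0% Ros, in donors A, B and C. The 167 higher genes held 3.51%, 3.34% and 3.12% in rDM and 11.5%, 11.1% and 9.67% in rDM 0% Ros. The genes were selected on these libraries, so that the direction of both shares is fixed by the selection and only their sizes are described. In rDM 0% Ins the lower genes held 9.01%, 8.41% and 10.1%, and in rDM 0% HC/PR 12.7%, 10.7% and 12.4%. The higher genes held 6.62%, 5.26% and 6.08% in rDM 0% Ins and 6.08%, 7.28% and 7.15% in rDM 0% HC/PR. Shares between those of rDM and rDM 0% Ros, as found in every donor for both other media, are likewise to be expected of genes chosen for the difference between rDM and rDM 0% Ros.

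**Figure D4:**
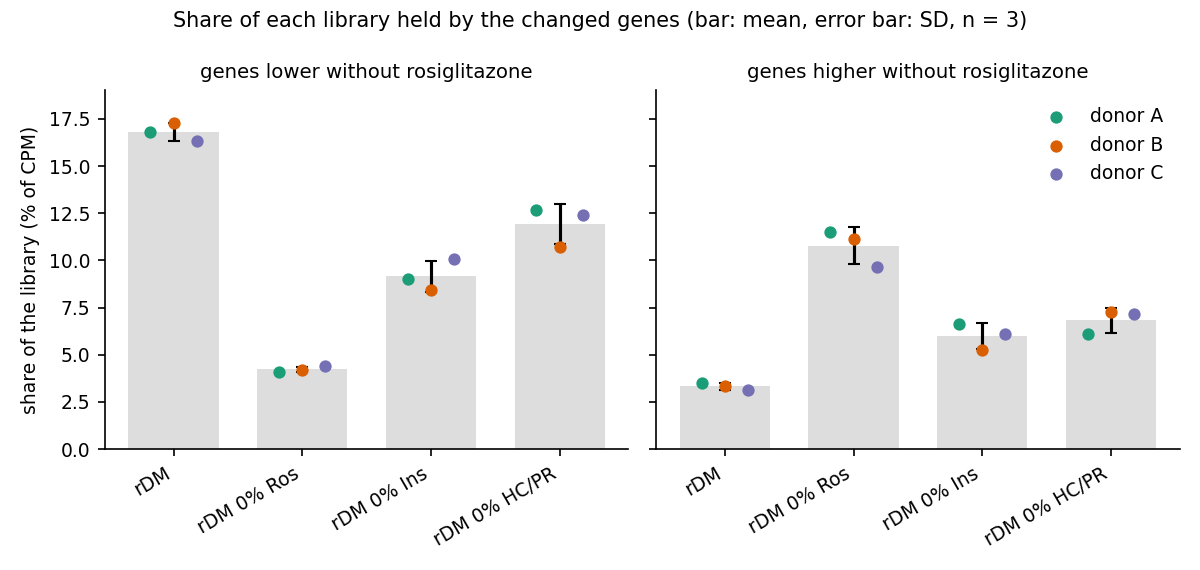
Share of each library, in % of CPM, held by the 303 genes lower (left) and the 167 genes higher (right) without rosiglitazone, with bars for the mean, error bars for the SD over 3 donors and points for donors. The lower genes hold 16.3% to 17.3% in rDM and 4.10% to 4.39% in rDM 0% Ros, and the other media lie between.

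Most of the abundant RNAs changed little. Of the 100 genes with the highest mean in rDM, 15 were lower and 4 higher, and 83 had a fold change under 2. Of the 500 highest, 113 were lower, 20 higher and 400 under 2-fold. Seen from the other side, of the 100 genes with the highest mean in rDM 0% Ros, 13 were higher and 1 lower, and of the 500 highest 52 were higher and 50 lower. The excess of lower among the 500 most abundant genes was thus seen when they were ranked by rDM and not when they were ranked by rDM 0% Ros. The gene with the highest mean over the 6 libraries stood at 16332, 28277 and 31972 CPM in rDM and at 35636, 70811 and 70336 CPM in rDM 0% Ros. All its libraries without rosiglitazone were above those in rDM, with ratios of 2.18, 2.50 and 2.20 in donors A, B and C, but it was not past the threshold (log2 fold change 1.196, SE 0.33, limma adjusted p = 0.0556). The second most abundant gene was at 30978, 33910 and 40718 CPM in rDM and at 38130, 30306 and 28770 CPM in rDM 0% Ros, with overlapping ranges (log2 fold change −0.12, limma adjusted p = 0.862).

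Some genes went from clear expression to absence. Of 3163 genes with at least 20 CPM in every rDM library, 42 (1.33%) had at most 3 reads in each rDM 0% Ros library. All 42 were past the threshold of limma, against 5.07% of all genes tested. The rule picked them from the libraries that limma compared, so that these calls are no separate support. The mean level of the 42 genes in rDM had a median of 63.9 CPM and ranged from 23.1 to 2587 CPM, and 9 were at 100 CPM or more in every rDM library. Together they had 15946 reads in rDM and 76 in rDM 0% Ros. In 14 of the 42 genes no read was found in any rDM 0% Ros library. The most abundant of these 14 averaged 124.6 CPM in rDM, with 33.4, 131 and 209 CPM in donors A, B and C. This mean was at least 16.4-fold higher than the mean level of 7.58 CPM that 3 reads per library allow. The bound is smaller for donor A alone. In the opposite direction, of 3233 genes with at least 20 CPM in every rDM 0% Ros library, 4 (0.124%) had at most 3 reads in each rDM library, with 10 reads in rDM and 403 in rDM 0% Ros. All 4 were past the threshold, with the same limit. The rule counted reads, and the rDM libraries were deeper, so that absence was harder to meet in rDM. With every library thinned to 295288 reads the numbers were 64 and 35, a ratio much closer to even than 42 to 4. Thinning made the limit of 3 reads equal among libraries and also raised it, to about 10.2 CPM, and these changes were not separated. Leaving out donor A with both its libraries gave 70 and 28 genes, donor B 51 and 16, and donor C 68 and 10.

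The 42 genes were chosen for their levels in rDM and rDM 0% Ros, so that higher levels in a medium the rule did not use follow in large part from the choice, and the values in the other media are a description. Their summed level was 6967, 8556 and 6174 CPM in rDM and 45.5, 73.5 and 73.4 CPM in rDM 0% Ros. It was 2030, 1525 and 2259 CPM in rDM 0% Ins and 4626, 2671 and 4250 CPM in rDM 0% HC/PR. Of the 42, 12 stayed at 20 CPM or more in every rDM 0% Ins library and 21 in every rDM 0% HC/PR library. At most 3 reads in every library were found for 4 of them without insulin and for 0 without steroids. By the same rule, and against the same rDM libraries, 7 genes were absent without insulin and 1 without steroids, whereas 1 gene in each went from absent in rDM to at least 20 CPM.

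**Figure D5:**
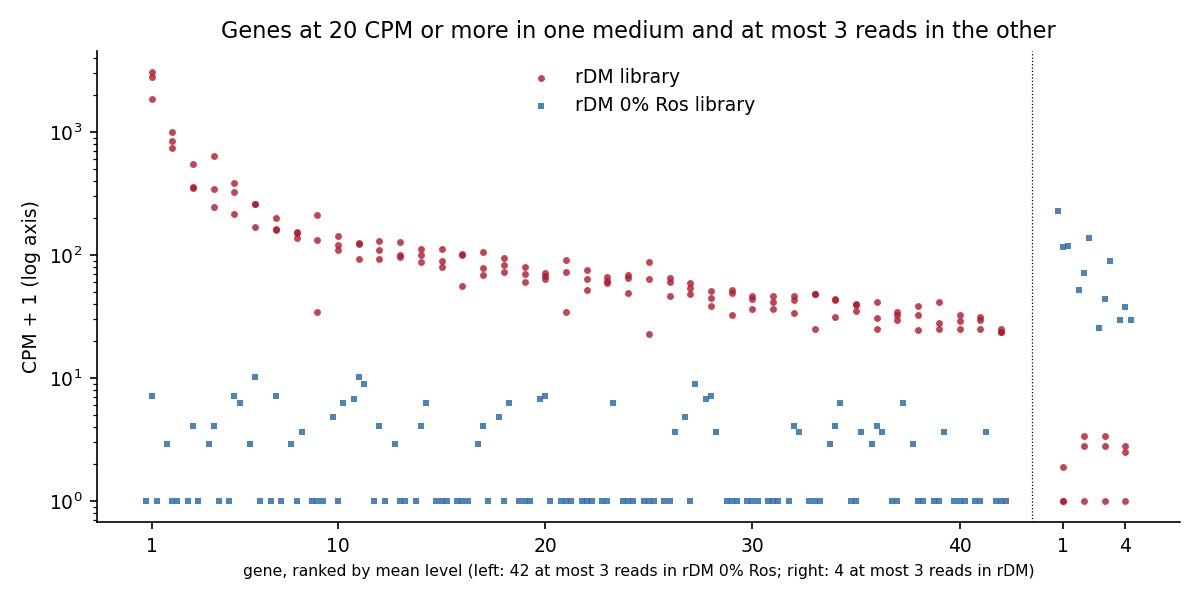
Levels, in CPM + 1 on a log axis, of the 42 genes with at least 20 CPM in each rDM library and at most 3 reads in each rDM 0% Ros library (left) and of the 4 genes with the reverse pattern (right), ranked by mean level, with a point per library. Most of the points without rosiglitazone at left lie at no reads.

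The comparison was repeated on reads per transcript, which had not been corrected for batch. Of 5372 transcripts tested, 254 (4.73%) differed, with 188 lower (3.5%) and 66 higher (1.23%) in rDM 0% Ros (edgeR quasi-likelihood test with donor as a block, Benjamini-Hochberg adjusted p under 0.05). The median log2 fold change was −2.37 for the lower and 1.62 for the higher transcripts, and −2.35 for the lower ones when 19 without reads in rDM 0% Ros were set to their bound. The count was 110 with the library pool in the block and 80 without the donor block, and it fell to 48 without donor A, 101 without donor B and 28 without donor C. The transcript with the largest loss was 754 bases long and stood at 35670, 28273 and 31350 CPM in rDM and at 251, 582 and 57.1 CPM in rDM 0% Ros (log2 fold change −6.84, edgeR adjusted p = 0.00169). Its 3 rDM 0% Ros libraries differed among themselves, with donor B the highest and donor C the lowest, and all were far below the rDM libraries. The transcripts lower without rosiglitazone held 13.0%, 13.1% and 12.7% of the reads in rDM and 2.20%, 2.59% and 2.56% in rDM 0% Ros. As for the genes, the direction of this share is fixed by the selection on the same libraries. By the rule for absence, 32 of 2700 transcripts were present in rDM and absent without rosiglitazone and 1 of 2821 had the reverse pattern.

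Classed by their rDM mean, as the genes were at first, transcripts were also called more often at high level, again with no test between classes, with 26 lower and 6 higher of 177 at 1000 CPM or more, 114 and 22 of 1057 between 100 and 1000 CPM, 48 and 33 of 3775 between 10 and 100 CPM, and 0 and 5 of 363 under 10 CPM. Classed by the mean over the 6 libraries, again an alternative added later, the numbers lower and higher were 18 and 8 of 172 at 1000 CPM or more, 88 and 34 of 1070 between 100 and 1000 CPM, 82 and 24 of 3991 between 10 and 100 CPM, and 0 and 0 of 139 under 10 CPM. The share called rose with level in both directions here too, to 10.5% lower and 4.65% higher in the top class, with the same limit from counting error. The lower transcripts had a median length of 1693.5 bases, the higher ones 2085 and all tested 1997. The share lower was 3.66% under 1000 bases, 4.83% from 1000 to 2000, 3.05% from 2000 to 4000 and 0.768% at 4000 bases and over. All transcripts shifted with length as well, from a median log2 fold change of −0.15 under 1000 bases and −0.07 from 1000 to 2000 bases to 0.17 from 2000 to 4000 and 0.40 at 4000 bases and over. The length below which transcripts took 50% of the reads was 933, 1103 and 1041 bases in rDM and 1049, 1147 and 1187 bases in rDM 0% Ros, longer without rosiglitazone in each donor. With a smooth curve against length removed from each library, 246 transcripts passed, of which 226 were among the 254.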

How the data were processed

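Poly(A) RNA of 12 libraries (4 media, 3 donors) was read as PCR cDNA by Nanopore sequencing. The authors aligned reads to the bovine ARS-UCD1.2 transcriptome with Minimap2 and counted them with Salmon, and the files per library hold the deposited estimated counts per transcript (38030 transcripts), without batch correction. The authors deposited per-gene CPM after import with tximport and correction of batch, which was taken here to be also donor, with ComBat-seq. The CPM columns have an equal total, and 100% of their values were whole multiples of 1 read (tolerance 0.001), which returned reads amounting to 94.7% to 98.3% of the estimated counts in the 6 libraries compared. Library pools were read from the names of the library files.

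CPM were analysed with limma 3.58.1 (R 4.3.3) on log2(CPM + 1), with all 12 libraries, medium and donor as terms, a mean-variance trend, genes with at least 5 CPM in 3 or more libraries, and Benjamini-Hochberg adjustment over all genes tested. The trend was not part of the written design and was chosen after fits with and without it had been seen. Estimated counts per transcript were rounded and tested with edgeR 4.0.16 (quasi-likelihood, TMM, filterByExpr, donor block). edgeR and DESeq2 1.42.0 on the recovered reads were alternatives. The labels give each medium replicates A, B and C, which the study describes as 3 donors, and in the uncorrected reads the deviations of rDM and rDM 0% Ros libraries of the same donor correlated at 0.453, 0.406 and 0.330 (lowest of 18 same-donor pairs of media 0.195), so that the block was kept. No pairs of different donors are given beside these values. They do not bear on the corrected CPM of the main test, where 742 genes passed without the block and 470 with it. p-values rest on the spread left after medium and donor were fitted, pooled over the 4 media with 3 donors each. In limma this spread was also drawn toward the mean-variance trend. They do not measure the spread among donors itself. Absence was at most 3 reads in each library, and intervals for ratios of reads are exact (Clopper-Pearson, 95%).

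Genes given in full averaged 20 CPM or more over the 6 libraries and are those, past the threshold and changed in 1 direction in all donors, that had the largest fall, rise, loss or gain. Other genes are given by rank of loss, gain or abundance, chosen after their values were seen. The comparison, rules and lists were chosen with earlier results of these data known. Since 0 identifiers matched a name, the planned gene lists could not be counted and no sequences are shown. Scripts were tested on simulated data. Alternatives were other scalings, pseudocounts, filters, thresholds, tools, blocks and depths, and leaving out each donor and library.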

Additional observations from a re-analysis of the deposited data

How the results depend on the processing

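Of 26 alternatives for the count of 470 genes, 14 stayed within 1.5 times of it, with edgeR on recovered reads at 538 (427 shared with the 470), DESeq2 with the block at 419, DESeq2 on medium alone at 643, TMM scaling at 507, DESeq2 size factors at 531, pseudocounts of 0.1 and 10 at 431 and 513, no filter at 473, a filter of 20 CPM at 508, and equal depth at 418. Changed, higher and lower genes without the donor block numbered 742, 314 and 428, more than with pairing by donor, whereas in uncorrected transcripts the block gave more calls. An adjusted p under 0.01 gave 249, 65 and 184, no mean-variance trend, an alternative added after seeing the data, 210, 47 and 163, and uncorrected transcripts 254, 66 and 188 with the donor block and 80, 6 and 74 without it. The pool in the block gave 304 changed and 95 higher, and the 6 libraries alone 581 changed, of which 269 were higher. Leaving out a donor or library gave 155 to 387 changed, 37 to 144 higher and 118 to 256 lower genes. Transcripts passing numbered 110 with the pool, 80 without the block and 28 to 174 with a donor or library left out. Genes absent without rosiglitazone, and absent in rDM, numbered 21 and 2 from 50 CPM, 9 and 1 from 100 CPM, 14 and 0 at 0 reads, 64 and 35 at equal depth, 32 and 1 in uncorrected transcripts, and 51 to 70 and 10 to 28 with a donor left out. The causes of these shifts were not tested, apart from those built into a setting, such as fewer samples or a stricter threshold. The 4 genes given in full kept their direction in all 24 fits in which they were tested, and ENSBTAG00000052305 and ENSBTAG00000003505 were past the threshold in 21 and 23 of them. They could not be refitted on uncorrected transcripts, which were not assigned to genes here. Depth limits absence to a few CPM per library.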

Other observations

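At an equal depth of 295288 reads, 8819, 9110 and 9123 genes had a read in the rDM libraries of donors A, B and C and 9546, 8887 and 9618 in the rDM 0% Ros libraries. The ranges overlapped, and donor B was the donor with fewer genes without rosiglitazone than with it.

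Among tested genes with 0 reads in every rDM library, the one with the highest mean in rDM 0% Ros, chosen after its values were seen, stood at 0, 18.4 and 1728 CPM in donors A, B and C. It was not past the threshold (limma adjusted p = 0.16), and 1 library gave nearly all of its reads without rosiglitazone. It stood at 0, 306 and 406 CPM in rDM 0% Ins and at 0, 649 and 17.2 CPM in rDM 0% HC/PR, so that donor A had no reads of this gene in any medium.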
